A study of Mus musculus with 8 samples.

Results

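The 47 genes described here are cell cycle and proliferation genes, chosen by name from the 47937 genes of the deposited counts table: cyclins, cyclin-dependent kinases (CDKs) and their inhibitors, the pocket proteins and the transcription factors they work with, DNA replication genes, mitosis genes and general markers of dividing cells. Each of the 47 was found in the table by its Ensembl identifier, and they fall into 7 lists by role. They were measured in mature CD8 single-positive (CD8SP) thymocytes sorted as TCRβ+MHC1 high from mice 6 to 7 weeks of age. Ndrg3ctrl mice had the genotype Ndrg3 +/fl;Lck-cre+ and Ndrg3TKO mice Ndrg3 fl/fl;Lck-cre+, with 4 mice and 4 RNA sequencing libraries in each group. Both groups therefore carried the Lck-cre transgene, which is active in developing T cells, and the controls carried 1 floxed allele. Library totals ran from 21126698 to 32668081 counts, and 3 counts, taken as the lowest amount that can be told from 0, came to between 0.0918 and 0.142 CPM. CPM is the count of a gene divided by the library total in units of 1e6 counts, and levels are given below as CPM after scaling of the totals by the TMM method.

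Cells that leave G1 do so when D-type cyclins with Cdk4 or Cdk6, and then E-type cyclins with Cdk2, phosphorylate the pocket proteins Rb1, Rbl1 and Rbl2 and release E2F factors, which switch on the genes of DNA replication. CDK inhibitors hold these kinases back. Later in the cycle, B-Myb and FOXM1 work with the MuvB complex to switch on the genes of mitosis, while in resting cells MuvB joins pocket proteins and E2F factors to keep cycle genes off. In the thymus most divisions take place at early stages, before the mature single-positive stage sorted here, and mature thymocytes are largely on their way to the resting state of naïve T cells. Transcripts of the late cycle are found mainly in cells that are dividing, so that in a bulk library fewer dividing cells and less RNA per cell cannot be told apart.

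The targeted gene was examined first. Ndrg3 (ENSMUSG00000027634, chromosome 2 of GRCm38 from 156927345 to 156992056) had 79.3, 81.5, 81.2 and 80.9 CPM in Ndrg3ctrl replicates 1 to 4 and 50.4, 48.4, 53.1 and 55.3 CPM in Ndrg3TKO replicates 1 to 4. The 2 groups did not overlap, and the log2 fold change was −0.64 (SE 0.0526, adjusted p = 1.04e-05, quasi-likelihood test in edgeR, adjusted by Benjamini-Hochberg over all 14633 genes tested). Reads were counted over the whole gene, of which only 1 exon is floxed, so the remaining count does not measure how completely that exon was lost.

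The sorted cells carried the transcripts of mature CD8SP cells. All 11 markers of these cells were tested and none passed an adjusted p of 0.05, with Cd8a the most abundant at a mean of 1359 CPM. Of the marker lists of other cells, that of natural killer (NK) and NKT cells was the most abundant, with summed levels of 222 to 298 CPM, nearly all of it from Nkg7, a gene of cytotoxic granules that cytotoxic T cells also express (mean 253 CPM). Its sum was 234 ± 18.5 CPM in Ndrg3ctrl and 275 ± 26.4 CPM in Ndrg3TKO (SD, n = 4 each), and 1 of its 3 tested genes passed the threshold, Klrb1c, an NK cell receptor gene, at 0.305 and 1.77 CPM (log2 fold change 2.62, adjusted p = 0.00149, edgeR). The part of these markers in the results below was not tested. The most abundant markers of the remaining lists were Cd1d1 (immature and double-positive thymocytes, mean 29.2 CPM), Trdc (gamma delta T cells) and Cd79b (B cells, 10.3 CPM), and those of the CD4 lineage, myeloid, epithelial and erythroid lists were at 4.21 CPM (Foxp3) or lower. The summed B cell markers, of which 1 was tested and 0 passed, did not overlap between the groups, at 11.2 to 13.3 CPM in Ndrg3ctrl and 8.72 to 9.52 CPM in Ndrg3TKO. Cd4 lay between 0.246 and 1.48 CPM. The erythroid genes Hba-a1, Hbb-bs and Hbb-bt, the B cell gene Ms4a1 and the NK cell gene Ncr1 had no count in any library.

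Without a block for replicate number, no cell cycle member passed the test for a difference between the genotypes. Of the 47 members, 46 passed the filter on low counts, and 0 of the 46 had an adjusted p under 0.05 (edgeR), where 1.15% of all tested genes did (0.793% higher and 0.355% lower in Ndrg3TKO). DESeq2 also called 0 members. With the replicate number that the labels share fitted as a block, 5 of the 46 members passed, all of them lower in Ndrg3TKO. In that fit 800 of the 14633 tested genes passed, or 5.47% in either direction, with 435 higher and 365 lower. These numbers were not taken as pairs, for reasons given under the processing. Without the block, 2 members had an unadjusted p under 0.05 (edgeR), Cdkn2d and Mcm3, beside 10.9% of all tested genes. The estimates were small: the 46 log2 fold changes lay between −0.32 for Ccna2 and 0.09 for Cdk2, and no 95% confidence interval reached beyond −0.71 or 0.34, which correspond to 0.611-fold and 1.26-fold. For 39 of the 46 members the interval lay wholly within 0.5 log2 units of 0. The median over the members was −0.12, beside −0.0033 over all tested genes, and 41 of the 46 estimates were below 0, beside 51.2% of all tested genes. The 5 above 0, where 48.8% of all tested genes lay, were Cdk2, Ccne2, Cdkn1b, Rbl2 and Rb1.

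A large part of this lean towards lower values was carried by 1 library. Ndrg3TKO replicate 3 was the lowest of the 8 libraries for 36 of the 47 members, whereas it was lowest for 10.5% of all tested genes. Without it, 30 of the 46 estimates were below 0, their median was −0.03, none passed the threshold, and they ranged from −0.16 for Ccna2 to 0.14 for Ccne2. Its total of 29699102 counts was within the range of the other libraries. Results that rest on this library are given below with and without it.

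**Figure D1:**
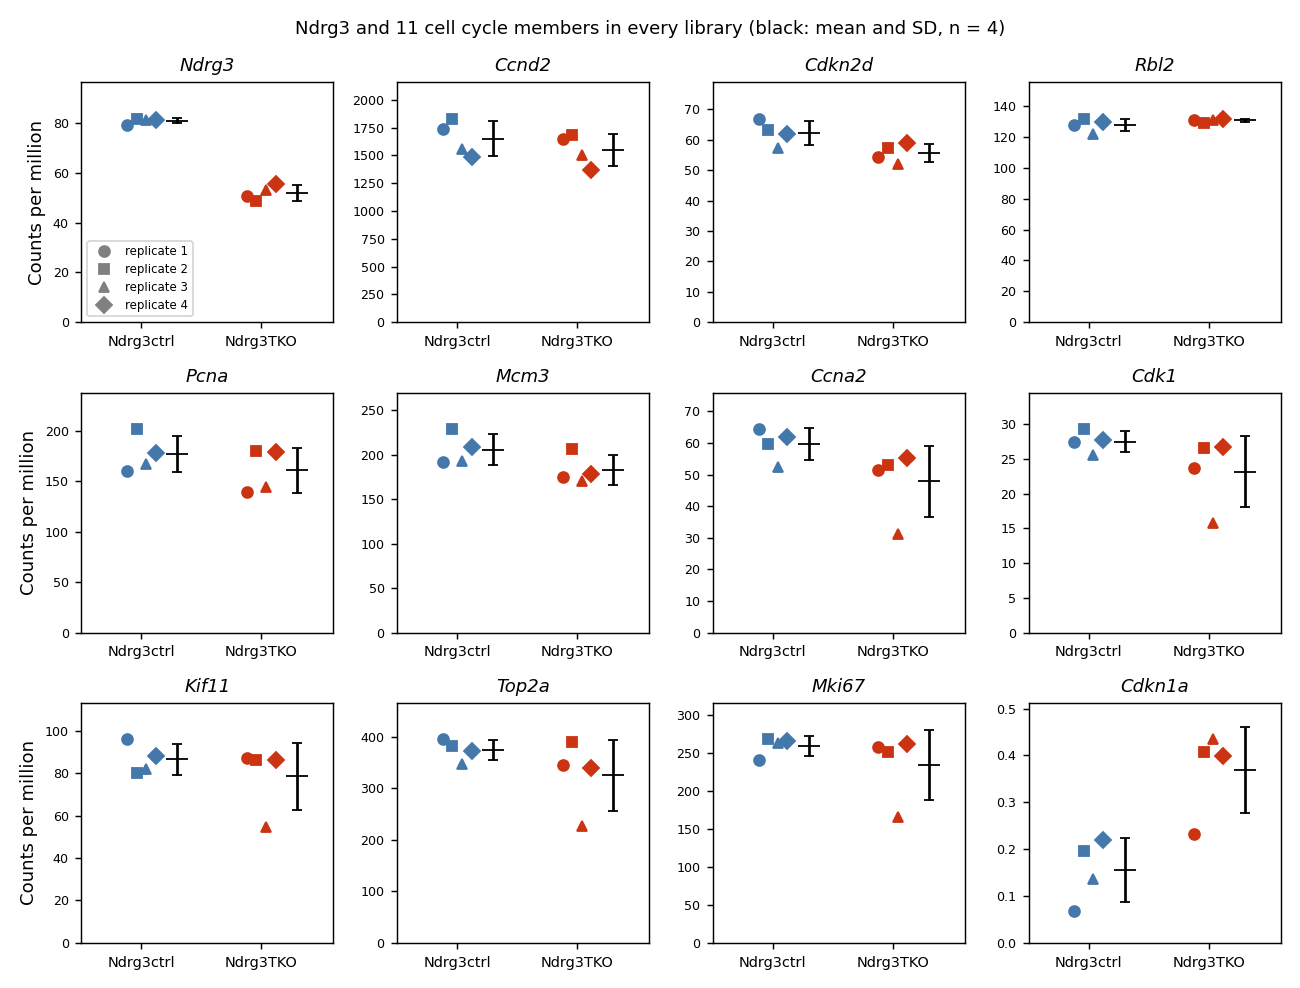
CPM of Ndrg3 and of 11 members in each library (y axes from 0; symbols give the replicate number, black marks the mean and SD of 4 libraries). Ndrg3 separated the groups, Ccna2, Cdk1, Kif11, Top2a and Mki67 were lowest in Ndrg3TKO replicate 3, and Cdkn1a lay below 0.5 CPM in every library.

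The G1 cyclins and CDKs include the most abundant member. Ccnd2, cyclin D2, had the highest level of all 47 members at 170.1 CPM per kilobase of exon (mean of 8 libraries), 4.20-fold the level of Ccnd3, cyclin D3, which had 40.5. Cdk4 had 54.6 CPM per kilobase and Cdk6, the related kinase, 15.7. The length used is that of all annotated exons of a gene, over all its transcripts. Which transcripts were expressed was not measured, so ratios and orders of level per kilobase depend on the annotation. Ccnd2 itself had 1737, 1827, 1555 and 1485 CPM in Ndrg3ctrl replicates 1 to 4 and 1646, 1684, 1504 and 1365 CPM in Ndrg3TKO replicates 1 to 4. These ranges overlapped along most of their length, and the log2 fold change was −0.09 (95% confidence interval −0.28 to 0.09, adjusted p = 0.755, edgeR). Ccnd3 had group means of 364 ± 19.0 and 346 ± 12.9 CPM (SD, n = 4 each), Cdk4 184 ± 12.4 and 171 ± 12.4, and Cdk6 222 ± 14.4 and 216 ± 11.8, in Ndrg3ctrl and Ndrg3TKO. Their log2 fold changes of −0.07, −0.11 and −0.04 each lay within 2 SE of 0. The E-type cyclins were less abundant, Ccne1 at 12.3 and Ccne2 at 3.15 CPM per kilobase, and their kinase Cdk2 at 10.5. Over the 7 genes, 0 passed the threshold, 5 estimates were below 0 and the median log2 fold change was −0.06. Ndrg3TKO replicate 3 was the lowest library for 2 of the 7, Ccne1 and Ccne2, at 84.9% and 67.8% of the mean of the other 3 Ndrg3TKO libraries, and the median was −0.04 without it and also −0.04 without Ndrg3ctrl replicate 2.

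The CDK inhibitors differed widely in level. Cdkn2d, p19Ink4d, and Cdkn1b, p27Kip1, had 37.5 and 34.9 CPM per kilobase, and their 8-library ranges overlapped. Cdkn2c, p18Ink4c, had 7.87 and Cdkn1a, p21Cip1, 0.0736 CPM per kilobase. Cdkn2d, an inhibitor of Cdk4 and Cdk6, had the smallest p of all members. Its levels were 66.8, 63.3, 57.3 and 61.9 CPM in Ndrg3ctrl and 54.4, 57.2, 52.2 and 58.9 CPM in Ndrg3TKO replicates 1 to 4. All 4 Ndrg3TKO values were below 3 of the 4 control values and only Ndrg3TKO replicate 4 exceeded the lowest control, and the log2 fold change of −0.16 (SE 0.0601, unadjusted p = 0.0167) did not pass the adjustment over all genes (adjusted p = 0.304, edgeR). Without Ndrg3TKO replicate 3 it was −0.13. Cdkn1b, which holds resting lymphocytes out of the cycle, had 171, 158, 141 and 153 CPM in Ndrg3ctrl and 164, 167, 155 and 161 CPM in Ndrg3TKO, all 4 of the latter within the control range (log2 fold change 0.06, 95% confidence interval −0.07 to 0.18, adjusted p = 0.786, edgeR).

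Cdkn1a was the 1 member that did not pass the filter on low counts, and the 1 member whose groups did not overlap. It had 2, 4, 4 and 6 counts in Ndrg3ctrl replicates 1 to 4 and 7, 13, 13 and 13 counts in Ndrg3TKO replicates 1 to 4, or 0.155 ± 0.0683 and 0.368 ± 0.0921 CPM (SD, n = 4 each), a ratio of mean CPM of 2.38. Such a separation was seen in 7.04% of all tested genes, with Ndrg3TKO above in 3.44% and below in 3.59%. Cdkn1a was not among the tested genes, and the share among genes with counts as low was not computed. When all genes with a count were fitted without the filter, its log2 fold change was 1.27 (SE 0.506), with an adjusted p of 0.394 (edgeR), and DESeq2 gave 1.28 with an adjusted p of 0.444. At 16 counts over the controls and 46 over the knockouts, the size of this difference was poorly resolved.

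The pocket proteins had close group means. Rbl2, p130, the pocket protein of resting cells, had 128, 131, 122 and 129.8 CPM in Ndrg3ctrl and 131, 129, 131 and 132 CPM in Ndrg3TKO, and its log2 fold change was 0.03 (95% confidence interval −0.06 to 0.13, adjusted p = 0.847, edgeR). Rb1 had group means of 99.9 ± 3.13 and 101 ± 7.49 CPM and Rbl1, p107, 116 ± 1.67 and 114 ± 10.4 CPM (SD, n = 4 each). These 3 genes had like levels per length, 17.1, 16.7 and 19.2 CPM per kilobase, with overlapping ranges. E2f2, an activator E2F with 21.2 CPM per kilobase, had 107, 106, 101 and 120.5 CPM in Ndrg3ctrl and 101, 111, 72.8 and 108 CPM in Ndrg3TKO. The third Ndrg3TKO library was low and the other 3 lay in or at the edge of the control range (log2 fold change −0.15, adjusted p = 0.718 in edgeR, and −0.03 without that library). The same library was lowest for E2f1, Foxm1 and Mybl2, which encodes B-Myb. Over the 7 genes of this list 0 passed, and the median log2 fold change was −0.11 with all libraries and 0.01 without Ndrg3TKO replicate 3. Other libraries moved it too, to −0.05 without Ndrg3ctrl replicate 4 and −0.20 without Ndrg3TKO replicate 4.

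Several DNA replication genes were among the most abundant members. Pcna, the sliding clamp, had 70.4 CPM per kilobase and the 6 subunits of the MCM helicase between 29.9 (Mcm2) and 56.0 (Mcm6). All 10 estimates were below 0, from −0.17 to −0.04, and 0 passed the threshold without the replicate block. With it, Mcm2, Mcm3, Mcm5 and Mcm6 passed as lower in Ndrg3TKO (adjusted p from 0.0116 to 0.0481, edgeR). The values below are without the block. Pcna had 160.4, 202, 168 and 178 CPM in Ndrg3ctrl and 139, 180.3, 144 and 179 CPM in Ndrg3TKO replicates 1 to 4, with Ndrg3TKO replicates 2 and 4 inside the control range and 1 and 3 below it (log2 fold change −0.14, 95% confidence interval −0.35 to 0.07, adjusted p = 0.653, edgeR, and −0.09 without replicate 3). Mcm3 had the second smallest p of the members. Its levels were 192, 229, 193 and 209 CPM in Ndrg3ctrl and 175, 207, 170.5 and 179 CPM in Ndrg3TKO, so that Ndrg3TKO replicate 2 overlapped the controls and the other 3 lay below them. Its log2 fold change was −0.17 (SE 0.0712, unadjusted p = 0.0331, adjusted p = 0.404, edgeR). Mcm5 and Mcm2 had log2 fold changes of −0.15 and −0.14 and adjusted p of 0.461 and 0.514 (edgeR). Without Ndrg3TKO replicate 3 the log2 fold changes of Mcm3, Mcm5 and Mcm2 were −0.14, −0.10 and −0.13. Summed over Mcm2 to Mcm7, the helicase genes had 1302 ± 106 CPM in Ndrg3ctrl and 1195 ± 100.4 CPM in Ndrg3TKO (SD, n = 4 each).

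The replication genes were low in Ndrg3TKO replicate 1 as well as in replicate 3. Replicate 3 had 85.3% of the mean control level for the summed MCM genes, and Ndrg3TKO replicates 1, 2 and 4 had 87.6%, 103% and 91.5%. The control libraries ran from 93.7% to 111%, so Ndrg3TKO replicates 1, 3 and 4 were below every control. Summed over all 10 replication genes, Ndrg3TKO replicate 4 had 94.6%, inside the control range of 93.7% to 110%. Without replicate 3 the median log2 fold change of the 10 genes was −0.08, against −0.11 with it, and 7 of the 10 estimates were below 0. The median was −0.07 without Ndrg3ctrl replicate 2 and −0.18 without Ndrg3TKO replicate 2. Y-linked transcripts were above 1 CPM only in Ndrg3ctrl replicate 2 and Ndrg3TKO replicates 2 and 3, so the groups were not balanced for them. With Y-linked expression as a covariate the median was −0.15. In that fit 0 members passed, and the smallest adjusted p of a member was 0.0899, for Mcm3 (edgeR). The 3 genes that moved above 0 without Ndrg3TKO replicate 3 were Rrm1 and Rrm2, the subunits of ribonucleotide reductase, and Tyms, thymidylate synthase, which all supply nucleotides. Rrm2 had 98.3, 111, 65.4 and 111 CPM in Ndrg3TKO, beside 104, 107, 94.7 and 108 CPM in Ndrg3ctrl, and its log2 fold change went from −0.09 with all libraries to 0.05 without replicate 3.

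**Figure D2:**
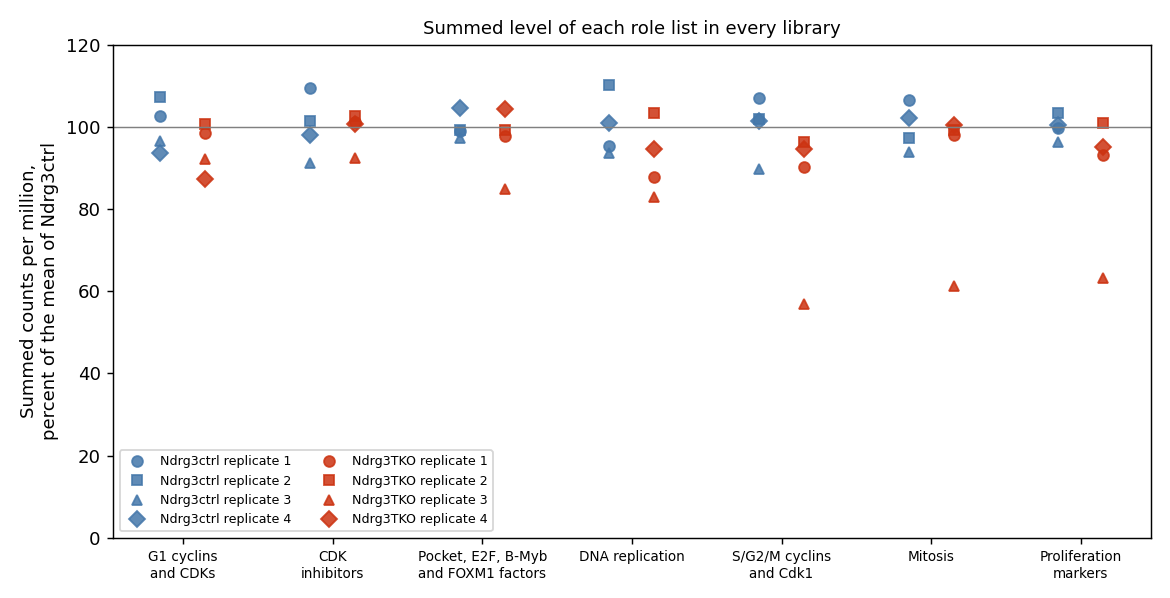
Summed CPM of each of the 7 role lists in every library, as a percent of the mean of the 4 Ndrg3ctrl libraries (y axis from 0; symbols give the replicate number). Ndrg3TKO replicate 3 had 57.0%, 61.4% and 63.1% of the control mean in the late cyclin, mitosis and marker lists, while the other 3 Ndrg3TKO libraries had between 90.2% and 101% in these lists.

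The cyclins of S, G2 and M phase were listed with Cdk1, the kinase that drives entry into mitosis. With all libraries and no covariate, this list had the lowest median estimate of the 7 lists and the widest spread between Ndrg3TKO libraries. Cdk1 had 27.5, 29.3, 25.6 and 27.7 CPM in Ndrg3ctrl and 23.7, 26.6, 15.8 and 26.7 CPM in Ndrg3TKO replicates 1 to 4. Ndrg3TKO replicate 3 was far below the rest and replicate 1 just below the controls, and the log2 fold change was −0.24 (SE 0.138, adjusted p = 0.569, edgeR) with all libraries and −0.10 without replicate 3. Ccna2, cyclin A2, had 64.3, 59.7, 52.5 and 61.7 CPM in Ndrg3ctrl and 51.5, 53.2, 31.3 and 55.3 CPM in Ndrg3TKO, and its log2 fold change of −0.32 (SE 0.171, adjusted p = 0.566, edgeR) became −0.16. Ccna2 was the member with the lowest estimate both with and without that library. Ccnb2, cyclin B2, had group means of 25.8 ± 1.87 and 23.2 ± 4.52 CPM (SD, n = 4 each), with log2 fold changes of −0.16 and −0.02 with and without that library. Summed over these 4 genes, Ndrg3TKO replicate 3 had 57.0% of the control mean and the other 3 Ndrg3TKO libraries 90.2%, 96.4% and 94.5%. The median log2 fold change of the list was −0.20 with all libraries and −0.06 without replicate 3. Without that library the replication genes (−0.08) and the proliferation markers (−0.07) had lower medians. With Y-linked expression as a covariate the markers (−0.19) were also below this list (−0.18).

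All 12 mitosis genes had their lowest level in Ndrg3TKO replicate 3. In that library they lay between 53.0% (Ube2c, a ubiquitin-conjugating enzyme of the anaphase-promoting complex) and 71.1% (Cdc20, an activator of that complex) of the mean of the other 3 Ndrg3TKO libraries. Kif11, the kinesin that separates spindle poles, had 96.0, 80.1, 82.1 and 88.2 CPM in Ndrg3ctrl and 87.0, 86.3, 54.5 and 86.3 CPM in Ndrg3TKO. The 3 other Ndrg3TKO values lay within 1 CPM of each other and inside the control range. Its log2 fold change was −0.14 (SE 0.147, adjusted p = 0.787, edgeR) with all libraries and −0.00 (SE 0.0657) without replicate 3. Bub1b, a spindle checkpoint kinase, had 56.2, 48.6, 44.3 and 50.6 CPM in Ndrg3ctrl and 50.6, 48.4, 28.9 and 52.1 CPM in Ndrg3TKO, with log2 fold changes of −0.15 and 0.01 with and without that library. Cdc20 had group means of 27.9 ± 2.47 and 25.8 ± 4.04 CPM (SD, n = 4 each), with log2 fold changes of −0.11 and −0.01 with and without it. Summed over the 12 genes, Ndrg3TKO replicates 1, 2 and 4 had 98.1%, 99.3% and 100.4% of the control mean and replicate 3 had 61.4%. The median log2 fold change of the list was −0.15 with all libraries and −0.01 without replicate 3, and 0 of the 12 genes passed in either.

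The general proliferation markers were low in the same library. Mki67, which encodes the Ki-67 protein of cycling cells, had 239.9, 267, 263 and 265 CPM in Ndrg3ctrl and 257, 251, 165 and 261 CPM in Ndrg3TKO replicates 1 to 4. Apart from replicate 3, the Ndrg3TKO values lay inside the control range, and the log2 fold change was −0.15 (SE 0.132, adjusted p = 0.745, edgeR) with all libraries and −0.01 (SE 0.0589) without replicate 3. Top2a, topoisomerase II alpha, had 395, 383, 348 and 374 CPM in Ndrg3ctrl and 345, 389, 227 and 339.6 CPM in Ndrg3TKO, with log2 fold changes of −0.21 and −0.07. Its Ndrg3TKO replicate 2 lay inside the control range and replicates 1 and 4 just below it. Stmn1, stathmin, had 85.5, 96.1, 85.2 and 87.2 CPM in Ndrg3ctrl and 71.6, 88.5, 63.6 and 86.1 CPM in Ndrg3TKO. Ndrg3TKO replicates 2 and 4 overlapped the controls, replicates 1 and 3 did not, and the log2 fold change was −0.19 (SE 0.0935, adjusted p = 0.494, edgeR) and −0.11 without replicate 3. With the replicate block Stmn1 passed as lower (log2 fold change −0.20, adjusted p = 0.0432, edgeR).

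**Figure D3:**
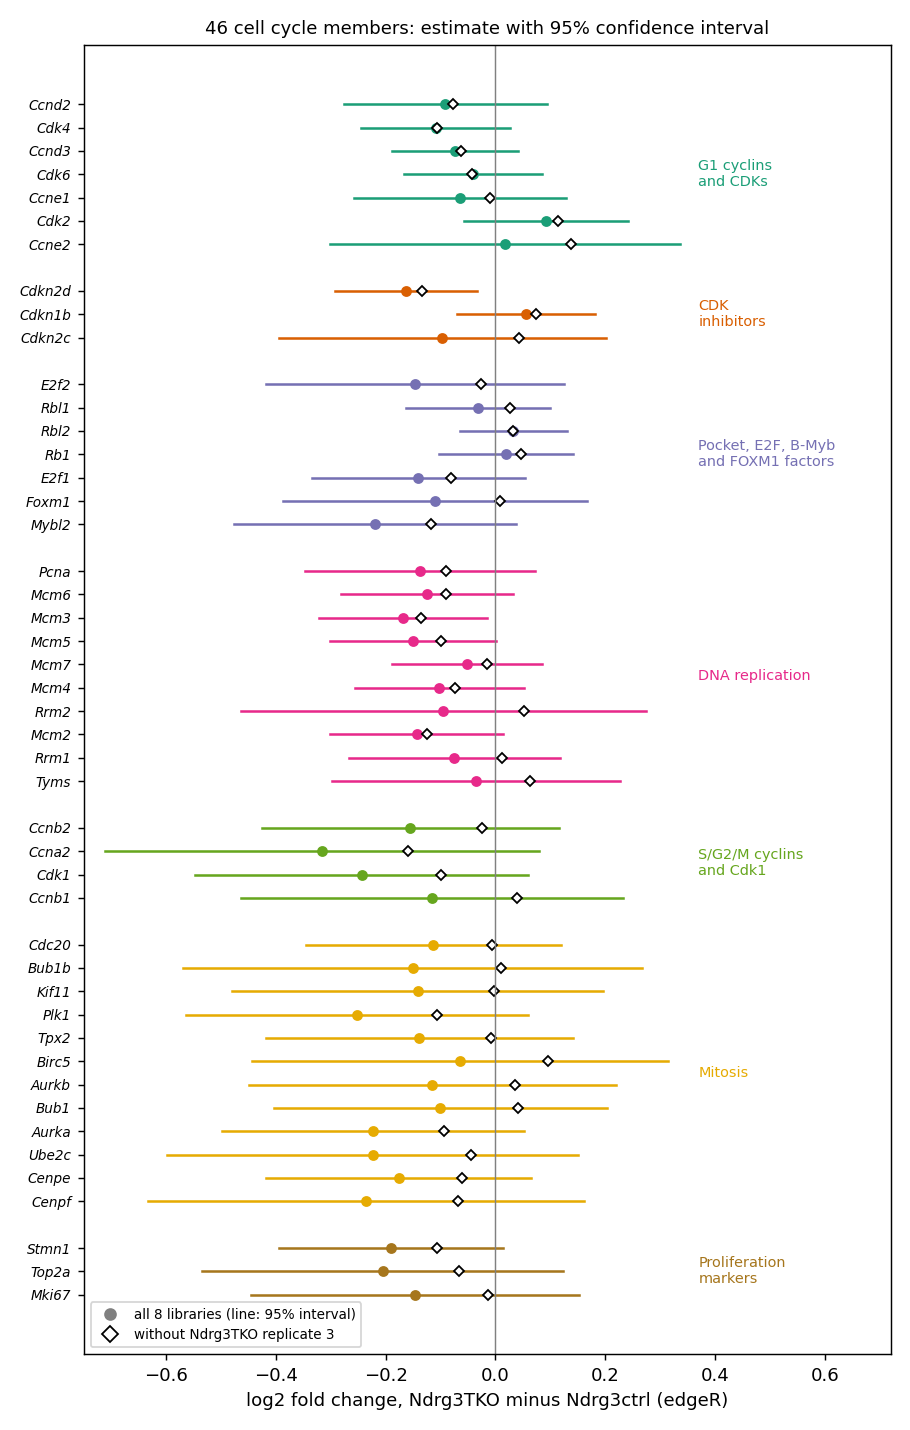
Log2 fold change of each of the 46 tested members, Ndrg3TKO minus Ndrg3ctrl (x axis), grouped by role. Filled circles with lines are estimates from all 8 libraries with 95% confidence intervals, and open diamonds are estimates without Ndrg3TKO replicate 3. The diamonds of the mitosis list lay near 0, with a median of −0.01, while those of the replication list kept a median of −0.08.

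The spread between libraries of one group showed the same library. The median SD of log2 CPM of the mitosis genes was 0.118 in Ndrg3ctrl and 0.355 in Ndrg3TKO, and 0.0675 in Ndrg3TKO without replicate 3. For the late cyclins with Cdk1 these values were 0.117, 0.369 and 0.0835. For the replication genes they were 0.119, 0.140 and 0.124, and for all tested genes with mean CPM within the members' range 0.0950, 0.0824 and 0.0838. Other transcripts in Ndrg3TKO replicate 3 are given next, and their part in its low late cycle transcripts was not tested. Summed Y-linked transcripts reached 416 CPM in it, 379 CPM in Ndrg3TKO replicate 2 and 340.5 CPM in Ndrg3ctrl replicate 2, and at most 0.0752 CPM in the other 5 libraries. Its summed level of 9 immature and double-positive thymocyte markers, of which 7 were tested and 0 passed, was 70.9 CPM, beside 69.2, 58.7 and 69.0 CPM in Ndrg3TKO replicates 1, 2 and 4 and 57.6 to 67.8 CPM in the controls. Cd1d1 was the most abundant of these, and Ptcra and Rag2 had at most 0.147 CPM in any library. The 7 tested had a median log2 fold change of −0.12, the other way from the summed group means of 61.5 CPM in Ndrg3ctrl and 66.9 CPM in Ndrg3TKO. The 4 CD4 lineage markers, of which 3 were tested and 0 passed, summed to 8.18 CPM in Ndrg3TKO replicate 3, or 148% of the control mean and the highest of the 8 libraries, beside 7.26, 5.97 and 5.10 CPM in Ndrg3TKO replicates 1, 2 and 4 and 4.50 to 6.91 CPM in the controls. Foxp3 was the most abundant of them at 6.55 CPM in replicate 3. The 3 tested had a median log2 fold change of −0.28, the other way from the sum. The NK and NKT cell markers were also highest there, at 298 CPM or 127% of the control mean, beside 296 CPM in Ndrg3TKO replicate 2.

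The late cycle genes that moved together in that library are known to share promoter motifs, and so their promoters were read from RefSeq (GRCm38.p6), which held 38 of the 47 members as 300-base windows of 250 bases before and 50 after the start. The motifs searched, on both strands, were the cell cycle genes homology region (CHR, TTTGAA or TTCGAA), to which MuvB binds, the CCAAT box (CCAAT), and 3 spellings of E2F sites (GGCGGGAA, TTTGGCGC and TTTCCCGC). In the members' windows the only overlap between different motifs was between 2 E2F spellings at Mcm3. A CHR was present in 8 of 10 mitosis genes, 2 of 3 late cyclin genes with Cdk1, and 2 of 9 replication genes, beside 21.7% of 27025 genes. CCAAT was present in 9 of 10 mitosis genes and 8 of 9 replication genes, beside 41.1% of all genes. An E2F spelling was present in 5 of 9 replication genes and 0 of 10 mitosis genes, beside 3.69% of all genes. The sequences below show these words in 4 late cycle genes that were low in Ndrg3TKO replicate 3 and in 2 replication genes. Each is 100 bases, 5′ to 3′ on the strand of the gene, that end just before the most upstream start annotated in RefSeq or GENCODE, which for Cdk1 and Cdc20 was 26 and 9 bases upstream of the RefSeq start. A second CHR of Cdk1, at −15 from its RefSeq start, therefore lies outside the stretch shown, as does a CCAAT box of Cdc20 at −8. Capitals mark CHR, CCAAT and E2F words or their reverse complements.
Cdk1, chr10:69352939-69353038, minus strand, with a CHR and CCAAT boxes: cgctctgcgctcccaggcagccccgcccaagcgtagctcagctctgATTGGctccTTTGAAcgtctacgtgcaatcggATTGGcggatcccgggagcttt
Cdc20, chr4:118437353-118437452, minus strand, with a CHR and a CCAAT box: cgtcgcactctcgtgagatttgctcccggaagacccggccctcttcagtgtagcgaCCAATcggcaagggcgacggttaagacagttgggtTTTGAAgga
Kif11, chr19:37376282-37376381, plus strand, with a CHR and a CCAAT box: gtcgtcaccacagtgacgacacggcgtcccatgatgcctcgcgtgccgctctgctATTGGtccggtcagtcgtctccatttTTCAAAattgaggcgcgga
Top2a, chr11:99024190-99024289, minus strand, with a CHR and CCAAT boxes: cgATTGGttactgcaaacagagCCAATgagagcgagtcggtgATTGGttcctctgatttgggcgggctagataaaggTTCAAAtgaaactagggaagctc
Mcm6, chr1:128359706-128359805, minus strand, with an E2F word and CCAAT boxes: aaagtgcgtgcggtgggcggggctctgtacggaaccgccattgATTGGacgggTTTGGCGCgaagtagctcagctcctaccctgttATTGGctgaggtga
Rrm1, chr7:102441595-102441694, plus strand, with an E2F word and CCAAT boxes: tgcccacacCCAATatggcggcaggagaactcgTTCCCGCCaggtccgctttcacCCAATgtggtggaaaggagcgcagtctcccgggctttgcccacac

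A match to these words is a description of the sequence, and binding was not measured. The first 4 genes had 61.6%, 71.1%, 63.0% and 63.3% of the mean of the other Ndrg3TKO libraries in replicate 3, Mcm6 had 90.4% and Rrm1 76.7%. Over the tested members with a RefSeq window, this share ran from 53.0% to 100.4% (median 64.0%) in the 16 with a CHR and from 57.9% to 100.4% (median 84.9%) in the 21 without. Birc5, Ccnb1 and Rrm2 were low without a CHR, at 57.9%, 59.2% and 61.2%. Mcm2, Mcm7 and Rbl2, at 95.1%, 90.1% and 100.4%, held a CHR. A CHR was present in 8 of 10 mitosis genes and 2 of 9 replication genes, so motif and role cannot be told apart in these shares.

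**Figure D4:**
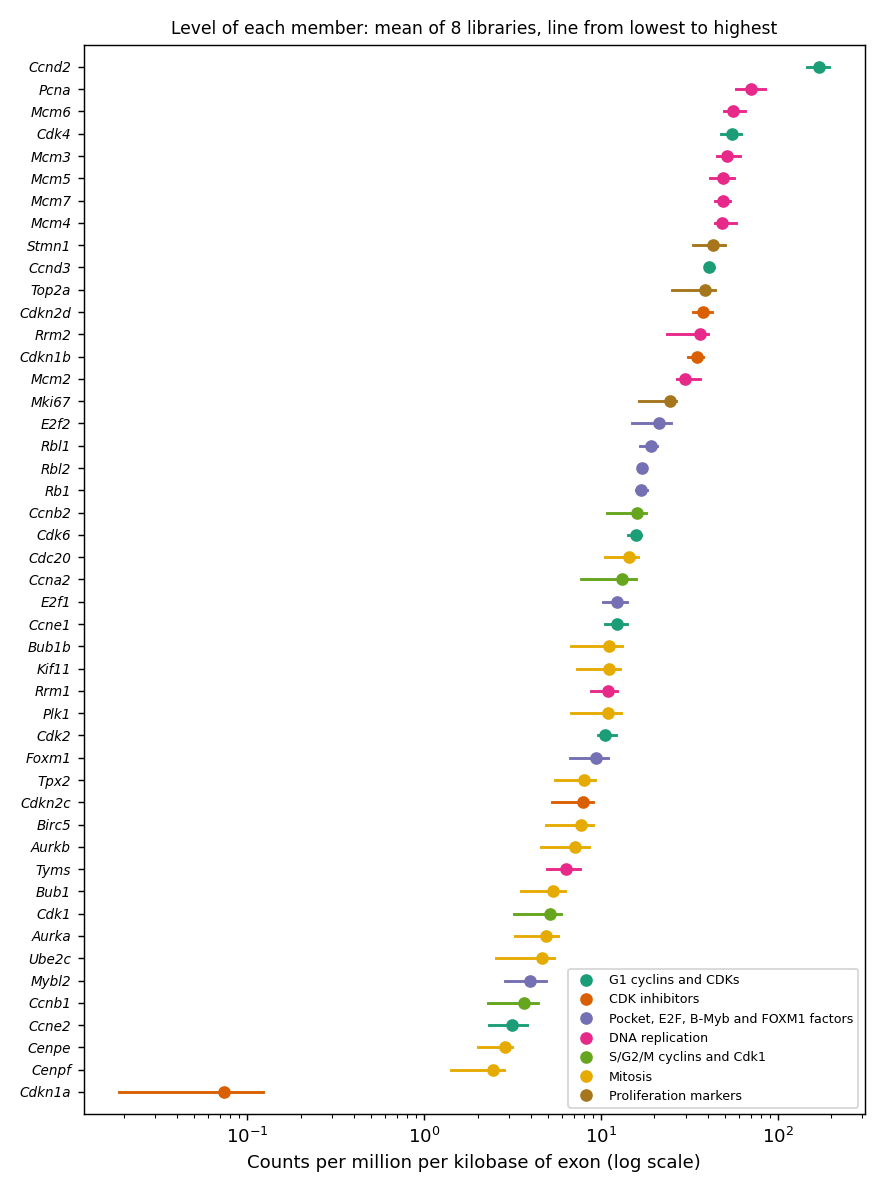
Level of each of the 47 members in CPM per kilobase of exon (log x axis), coloured by role, with points at the mean of 8 libraries and lines from the lowest to the highest library. Ccnd2 was highest at 170.1 and its range did not meet that of Pcna, the next gene, while Cdkn1a was lowest at 0.0736.

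The ranges of level per length of most lists overlapped. Ccnd2, Pcna, Mcm6 and Cdk4 headed the order, and of these only Ccnd2 had a range clear of its neighbour, since the ranges of Pcna, Mcm6, Cdk4 and Mcm3 overlapped. The mitosis genes lay between 2.44 (Cenpf) and 14.4 (Cdc20) CPM per kilobase, the late cyclins with Cdk1 between 3.64 (Ccnb1) and 16.0 (Ccnb2), and the replication genes between 6.36 (Tyms) and 70.4 (Pcna). The 3 proliferation markers, at 24.5 (Mki67), 38.8 (Top2a) and 43.2 (Stmn1), were above every mitosis gene.

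A further 131 genes of the same pathways, in 5 lists, were read alongside the members. Of these 128 were tested, 1 was higher in Ndrg3TKO and 0 were lower at an adjusted p under 0.05 (edgeR), beside 0.793% and 0.355% of all tested genes. With the replicate block 3 were higher and 9 lower, where 5.47% of all tested genes passed in either direction. Without it, an unadjusted p under 0.05 was found for 14 (edgeR), beside 10.9% of all tested genes, so neither count without the block stood above the background. Of the estimates 102 were below 0, beside 51.2% of all tested genes, with a median of −0.09. Without Ndrg3TKO replicate 3, which was the lowest library for 82 of the 131 (10.5% of all tested genes), 76 of 128 were below 0 and 0 passed the threshold. The gene that rose was Zmat3, a target of p53 that encodes a zinc finger RNA-binding protein. It had 55.7, 49.7, 49.9 and 46.0 CPM in Ndrg3ctrl and 71.1, 62.3, 70.3 and 59.1 CPM in Ndrg3TKO, without overlap, and its log2 fold change was 0.38 (SE 0.073, adjusted p = 0.0184, edgeR). This call was lost when any of 4 libraries was left out, with an adjusted p of 0.0763 without Ndrg3ctrl replicate 3, 0.0713 without Ndrg3ctrl replicate 4, 0.0805 without Ndrg3TKO replicate 1 and 0.0746 without Ndrg3TKO replicate 3, while the log2 fold change in these 4 fits was 0.34 to 0.38. The other 14 growth arrest and damage checkpoint genes did not pass, and over the list of 15 the median log2 fold change was 0.00, and 0.04 without Ndrg3TKO replicate 3.

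The other replication genes had 36 of 40 estimates below 0 (median −0.10) and the other mitosis genes 38 of 44 (median −0.13), with 0 past the threshold in either list. Ndrg3TKO replicate 3 was the lowest library for 25 and 41 of them, and without it 32 of 40 (median −0.06) and 25 of 44 (median −0.01) were below 0. Among the mitosis genes, Smc4, a condensin subunit named here after its values were seen, lay the other way: it had 493, 457, 472 and 448 CPM in Ndrg3ctrl and 556, 531, 543 and 530.3 CPM in Ndrg3TKO. The groups did not overlap, the log2 fold change was 0.21 (SE 0.0514), and the adjusted p was 0.0807 in edgeR and 0.00246 in DESeq2. The other cyclin, CDK and CDK regulator genes had 11 of 15 estimates below 0 (median −0.08) and the other E2F, DP and MuvB genes 10 of 14 (median −0.01), again with 0 past the threshold. Without Ndrg3TKO replicate 3 these were 9 of 15 (median −0.03) and 4 of 14 (median 0.03). Cdkn1c, Cdkn2a and Cdkn2b, further CDK inhibitors, were too low to test.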

How the data were processed

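CD8SP TCRβ+MHC1 high thymocytes from 4 Ndrg3ctrl and 4 Ndrg3TKO mice were profiled by RNA-seq (stranded total RNA kit with ribosomal RNA depletion, 1 library per mouse). The authors trimmed reads with cutadapt, aligned them to GRCm38.p4 with STAR, counted them per gene with featureCounts and deposited raw counts. Strand and multi-mapping settings are not given in the sources used here, so reads shared with overlapping, antisense or near-identical genes cannot be told apart. Groups came from the sample labels.

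Symbols, positions and exonic lengths were taken from GENCODE M21 (GRCm38), which matched 98.7% of identifiers. The exonic length of a gene counts each base in any of its annotated exons once. In edgeR 4.0.16 (R 4.3.3), low genes were removed by filterByExpr, library sizes were scaled by TMM, and the robust quasi-likelihood fit and its F test (glmQLFTest) were applied, with Benjamini-Hochberg adjustment over 14633 genes and a threshold of 0.05. SE is the absolute log2 fold change over the root of F. The floor of 3 counts per library covers counting error only, since reads carry no molecular identifiers. SE, confidence intervals and p-values measure the spread between mice. DESeq2 1.42.0, other scalings and filters, a replicate block, Y-linked expression as a covariate and leaving out each library were alternatives. The chi-square between replicates of a group was at least 9.95 per gene, so no library was a duplicate.

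Members and gene lists were chosen with earlier results of these data known. Genes named were Ndrg3; members and listed pathway genes past the threshold; the 3 members with the highest level per kilobase in each role list; 12 members set by name; members not tested; and the 5 members with the lowest p. Other genes were named after their values were seen. Counts and medians over a list carry no test.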

Additional observations from a re-analysis of the deposited data

Results flagged for a closer look

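In 100 groups of 4 libraries (the members, Ndrg3, Zmat3 and the library totals in each genotype), the library farthest from the others was set against the range of its group by Dixon's criterion, and 9 groups stood out, where chance gives about 1 in 20. Of the 9, 7 were low values of Ndrg3TKO replicate 3. These were Ccna2 (31.3 CPM), Cdc20 (19.7 CPM), Bub1b (28.9 CPM), Kif11 (54.5 CPM), Tpx2 (25.6 CPM), Cenpf (21.7 CPM) and Mki67 (165 CPM). All 7 genes are read from the same library and are not independent of each other. The other 2 were in single control libraries, a high Foxm1 in Ndrg3ctrl replicate 4 (62.9 CPM) and a low Mki67 in Ndrg3ctrl replicate 1 (239.9 CPM). Why Ndrg3TKO replicate 3 was low in these genes was not tested.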

How the results depend on the processing

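The count of 0 members past the threshold held in every setting except the replicate block. With the replicate block, 5 members passed, all lower in Ndrg3TKO: Mcm2, Mcm3, Mcm5, Mcm6 and Stmn1 (adjusted p from 0.0116 to 0.0481, edgeR), with log2 fold changes between −0.20 and −0.13 that were close to those without it. In that fit 800 genes passed in all, 435 higher and 365 lower, or 5.47% of those tested, and 3 other cell cycle genes were higher and 9 lower. Same-numbered libraries of the 2 groups, whose numbers the labels share without saying what they stand for, correlated across genes at 0.171, 0.394, −0.0579 and 0.281, so the numbers were not taken as pairs. Replicates 1, 2 and 4 correlated best with their own number and replicate 3 did not. Ndrg3TKO replicate 3 correlated best with Ndrg3ctrl replicate 2, at 0.147. Replicate 3 was also the only number whose libraries differed in Y-linked expression, at 0.0681 CPM in Ndrg3ctrl and 416 CPM in Ndrg3TKO. The part of this in the correlations was not tested.

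The number of all genes past the threshold, 168 (116 higher and 52 lower), was 309 (191 and 118) in DESeq2, 274 (176 and 98) with no filter on low counts and 437 (262 and 175) with Y-linked expression as a covariate. The count of other cell cycle genes that were higher, 1, was 2 in DESeq2 and 3 with the covariate. With each library left out in turn, 90 to 158 genes passed (72 to 110 higher, 18 to 48 lower), with 90 without Ndrg3TKO replicate 3 and 100 without Ndrg3ctrl replicate 1, and 0 or 1 other cell cycle gene was higher. The causes were not tested, beyond fewer libraries when one was left out. The median log2 fold change of the members lay between −0.18 (without Ndrg3TKO replicate 2) and −0.03 (without Ndrg3TKO replicate 3), and that of the CDK inhibitors between −0.13 and 0.044 (without Ndrg3TKO replicate 3), being 0.032 without Ndrg3ctrl replicate 1. Ndrg3 lay between −0.67 and −0.61. Each tested member had at least 199 counts in every library and Cdkn1a between 2 and 13; the part of depth in the calls was not tested.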
